A study of Homo sapiens with 12 samples.

Results

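The genes described here are 10 of the 57820 in the deposited table, chosen by symbol: the 5 subunits of the transcription factor NF-kB (NFKB1, NFKB2, REL, RELA, RELB), the inhibitors NFKBIA, NFKBIE, NFKBIZ and TNFAIP3, and the early response gene IER3. Each symbol matched 1 row, and all 10 passed the filter on low values that left 23128 genes for testing. Total RNA was sequenced in 12 libraries, 3 in each of 4 groups, all made from HL60, a promyelocytic line derived from an acute myeloid leukaemia. TFEB-Dox cells carried pRRL-TFEBS211A-puro, which expresses the S211A form of the lysosomal transcription factor TFEB under doxycycline, and were given doxycycline. TFEB-Veh cells carried this vector and received vehicle. EV-Dox cells carried the empty pRRL-EV-puro vector and were given doxycycline, and EV-Veh cells carried the empty vector and received vehicle. The dose of doxycycline was 1 µg/ml for 48 h, a protocol line that the labels attach to each sample, vehicle samples too. All cells were grown in RPMI-1640 with 10% FBS and came from biologically independent experiments, per the series description. Each vector was represented by a single transduced line, so between TFEB and EV groups vector and line cannot be told apart. Reads of the transgene and of endogenous TFEB were not separated.

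NF-kB is a family of dimers. In resting cells inhibitors of the IkB family such as the products of NFKBIA and NFKBIE hold RELA and REL dimers in the cytoplasm, and signals from cytokine and Toll-like receptors free them through the IkB kinase complex. A slower, non-canonical route processes the NFKB2 precursor, which pairs with RELB. NFKBIA, TNFAIP3, NFKB2, RELB and IER3 are themselves known target genes of the factor, and through NFKBIA and TNFAIP3 the response limits itself. In myeloid cells the pathway is known for driving inflammatory cytokines and survival genes.

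In TFEB-Dox cells the transcripts of IER3, RELB and NFKB2 rose against each of the 3 control groups, IER3 by over 100-fold on the deposited scale. NFKBIA and TNFAIP3 rose against TFEB-Veh and EV-Dox, and their rise against EV-Veh depended on how the libraries were scaled. RELA and REL, whose proteins carry the canonical activating dimers, did not pass the test against TFEB-Veh. NFKB1 and NFKBIE rose against TFEB-Veh and EV-Dox as deposited, which also depended on the scaling. NFKBIZ did not pass the test for a rise in any comparison with TFEB-Dox cells, though it lay above both vehicle groups as deposited.

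Whole-series values that touch these genes were as follows. The libraries held 4474007 to 22488047 recovered reads. Their totals on the deposited scale ran from 4012762 (EV-Dox replicate 3) to 22302095 (EV-Veh replicate 2). These were also the libraries with the fewest and the most recovered reads, so the deposited scale did not even out depth. TFEB itself, the check of the labels, was at 14470 to 22629 normalized reads in TFEB-Dox libraries and at 79.8 to 196 in the 9 others, so it checks the doxycycline label in the TFEB line alone. The deposited scaling left the level of expressed genes unequal: 7290 well expressed nuclear genes (mean of 200 or more) stood 0.75 higher (log2) in TFEB-Dox than in TFEB-Veh, 1.38 higher than in EV-Dox and 0.09 higher than in EV-Veh, and 1.29 lower in EV-Dox than in EV-Veh. Each comparison is therefore also given with the libraries scaled on those genes, called expressed-gene scaling below. The 7 promyelocyte markers MPO, ELANE, AZU1, PRTN3, CTSG, CD33 and MYB were all detected, and their summed level was 8021 to 11242 in TFEB-Dox, 50416 to 98069 in TFEB-Veh, 5084 to 30126 in EV-Dox and 68617 to 222154 in EV-Veh libraries. These markers moved with the groups, and their part in the results below was not tested. In bulk RNA, fewer cells of a type and less RNA per cell cannot be told apart. Markers of T and NK, B, erythroid, stromal, endothelial and epithelial cells were at 0 to 132 normalized reads per gene (17 of 18 listed were in the file), HBA1 at 0 in some libraries and COL1A1 highest. NFKBIZ, and RELB and IER3 in the control groups, lay inside this range. So did NFKB2 in TFEB-Veh, NFKBIE in TFEB-Veh and EV-Dox, and some other control libraries of NFKB2, NFKBIE and TNFAIP3.

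Promoter windows show which of these genes carry the letters that NF-kB and TFEB are known to bind. RefSeq windows on GRCh38.p14, from 250 bases before to 50 after a transcript start, were found for 7 of the 10 genes (12 windows). RELB, NFKBIE and IER3 had no window, so their promoters were not searched. The kB consensus, searched on both strands, was in 8 windows of 6 genes (NFKB1, NFKB2, REL, NFKBIA, NFKBIZ and TNFAIP3) and in 11.3% of the 35116 windows of all genes. In REL and NFKB2 some of its matches overlap each other. The E-box CACGTG was in 1 window, that of TNFAIP3, and in 7.26% of all windows. With the 2 bases on either side it reads GTCACGTGAC, the palindromic CLEAR element of lysosomal gene promoters that TFEB is known to bind. These flanking bases were read from the TNFAIP3 window itself, so the match of the longer pattern there was fixed in advance. Of all windows, 0.353% held these letters. RELA had neither pattern in its windows. A match describes letters only. The windows printed here begin with the one with the CLEAR element (TNFAIP3, chr6:137867009-137867308, plus strand). Next are windows of a subunit and an inhibitor called higher in TFEB-Dox than in TFEB-Veh (NFKB2, chr10:102394328-102394627, plus strand, and NFKBIA, chr14:35404700-35404999, minus strand). The last is from an inhibitor not called higher there (NFKBIZ, chr3:101827740-101828039, plus strand). Capitals mark kB matches and, in TNFAIP3, also the CLEAR element at position -80 from the start.
TNFAIP3: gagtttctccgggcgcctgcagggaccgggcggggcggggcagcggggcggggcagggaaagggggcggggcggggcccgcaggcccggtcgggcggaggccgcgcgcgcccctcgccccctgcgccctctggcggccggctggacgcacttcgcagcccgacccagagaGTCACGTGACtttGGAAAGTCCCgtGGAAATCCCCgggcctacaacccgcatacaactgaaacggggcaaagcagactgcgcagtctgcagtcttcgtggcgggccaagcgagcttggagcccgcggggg
NFKB2: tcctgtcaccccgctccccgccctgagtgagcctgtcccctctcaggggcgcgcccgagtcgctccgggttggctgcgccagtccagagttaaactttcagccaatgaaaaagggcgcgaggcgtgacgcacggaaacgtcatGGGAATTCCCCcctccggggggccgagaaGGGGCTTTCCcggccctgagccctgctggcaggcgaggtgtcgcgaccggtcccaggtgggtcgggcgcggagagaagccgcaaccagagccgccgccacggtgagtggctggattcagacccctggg
NFKBIA: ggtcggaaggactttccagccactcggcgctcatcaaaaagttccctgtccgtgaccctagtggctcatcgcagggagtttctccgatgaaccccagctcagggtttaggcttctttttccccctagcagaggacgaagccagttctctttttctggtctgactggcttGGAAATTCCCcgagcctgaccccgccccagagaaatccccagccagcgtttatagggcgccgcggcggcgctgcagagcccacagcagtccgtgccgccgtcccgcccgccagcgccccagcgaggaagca
NFKBIZ: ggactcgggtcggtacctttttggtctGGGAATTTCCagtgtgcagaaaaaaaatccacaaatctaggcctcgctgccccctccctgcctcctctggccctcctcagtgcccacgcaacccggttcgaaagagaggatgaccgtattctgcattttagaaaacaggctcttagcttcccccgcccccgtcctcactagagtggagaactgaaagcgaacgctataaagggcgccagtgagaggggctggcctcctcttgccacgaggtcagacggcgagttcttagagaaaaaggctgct

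Induction of TFEB S211A within its own line was read from TFEB-Dox against TFEB-Veh. By limma, 7 of the 10 genes were higher and 0 lower at an adjusted p below 0.05 on the log2(value + 1) scale, which understates the change of low genes, where 17.4% of all tested genes were higher and 4.66% lower (0 members were lower also at an unadjusted p below 0.05, by edgeR and by DESeq2). The median change of the 10 genes was 1.49, and that of all tested genes was -0.0017. With expressed-gene scaling 5 were higher and 0 lower, against 14.4% and 20.7% of all genes, and the medians were 0.74 and -0.72. NFKB2, RELB, NFKBIA, TNFAIP3 and IER3 were called higher and 0 genes lower under each of 5 scalings, as were 12.2% and 3.57% of tested genes. The 3 comparisons with TFEB-Dox share the TFEB-Dox libraries, and each control group also enters other comparisons, so their results are not independent of each other.

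**Figure D1:**
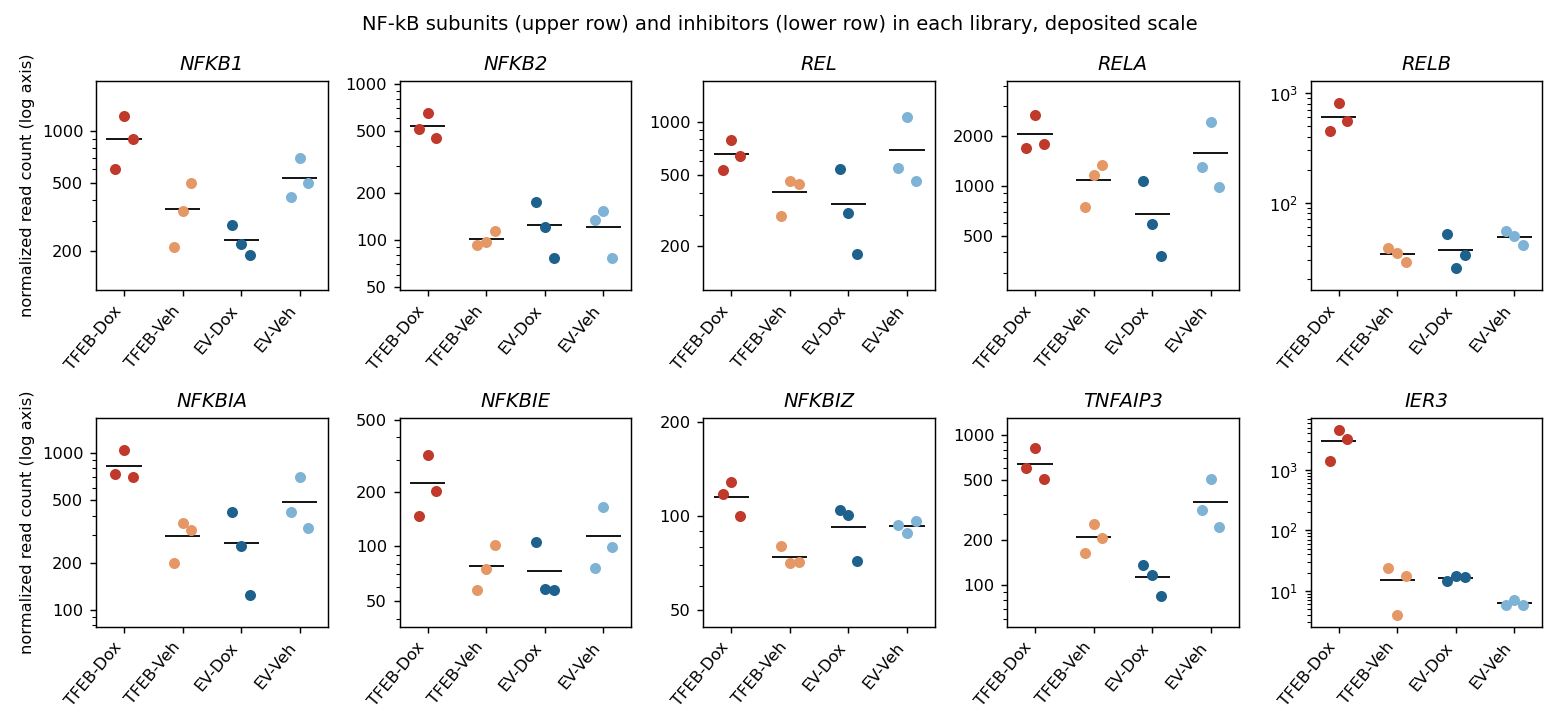
Deposited normalized read count (log axis) of the 10 genes in each library, by group in the order TFEB-Dox, TFEB-Veh, EV-Dox and EV-Veh. Points are libraries (3 per group) and lines are group means. The TFEB-Dox points of NFKB2, RELB and IER3 lie above all 9 others, while those of REL and NFKBIZ overlap control points.

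Among the subunits, RELB, the partner of processed NFKB2 in the non-canonical route, changed most. It had 448, 808 and 553 normalized reads in TFEB-Dox, against 38.4, 34.5 and 28.8 in TFEB-Veh, 51.8, 25.2 and 33.2 in EV-Dox and 55.0, 49.6 and 40.7 in EV-Veh libraries. All 3 TFEB-Dox libraries lay far above the 9 others, of which EV-Dox overlapped both vehicle groups and TFEB-Veh lay below EV-Veh. The log2 change was 4.08 ± 0.32 (SE) against TFEB-Veh (limma adjusted p = 7e-14), 4.02 against EV-Dox (limma adjusted p = 1.1e-13) and 3.58 against EV-Veh (limma adjusted p = 3.4e-12). With expressed-gene scaling it was 3.33, 2.66 and 3.48 in the same order, and the calls held without each library in turn. The control values rest on 29 to 61 reads per library, those of TFEB-Dox on 428 to 751.

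NFKB2 encodes the precursor that the non-canonical route cuts to its active form. Its level was 512, 649.9 and 449 in TFEB-Dox, against 93.1, 97.2 and 115 in TFEB-Veh, 177, 122 and 77.1 in EV-Dox and 135, 155 and 76.5 in EV-Veh libraries. The TFEB-Dox libraries again stood above all others. The log2 change was 2.38 ± 0.39 against TFEB-Veh (limma adjusted p = 4.8e-06), 2.16 against EV-Dox (limma adjusted p = 2.1e-05) and 2.17 against EV-Veh (limma adjusted p = 2.5e-05). Expressed-gene scaling gave 1.63 and 2.08 against the vehicle groups and a smaller 0.78 against EV-Dox (limma adjusted p = 0.0077), and NFKB2 was also 1.30 higher in EV-Dox than in EV-Veh on that scale (limma adjusted p = 0.0013).

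NFKB1, which encodes the precursor of the subunit that most often pairs with RELA, had 600.4, 1224 and 898 normalized reads in TFEB-Dox, against 212, 345 and 504 in TFEB-Veh, 287, 219.8 and 190.1 in EV-Dox and 416, 698 and 502 in EV-Veh libraries. TFEB-Dox lay above TFEB-Veh and EV-Dox without overlap but overlapped EV-Veh. It rose by 1.38 ± 0.46 against TFEB-Veh (limma adjusted p = 0.025) and by 1.92 against EV-Dox (limma adjusted p = 0.001), and differed by 0.73 from EV-Veh (limma adjusted p = 0.32). The call against TFEB-Veh was lost without TFEB-Dox replicate 2 or 3 and without TFEB-Veh replicate 1 or 2 (limma adjusted p up to 0.17). On expressed-gene scaling the differences were 0.64, 0.55 and 0.64, with limma adjusted p of 0.053, 0.053 and 0.056 for TFEB-Veh, EV-Dox and EV-Veh, so none passed.

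RELA, the main activating subunit of the canonical route, had 1688, 2665 and 1777 in TFEB-Dox, against 749, 1155 and 1331 in TFEB-Veh, 1064, 589.6 and 377 in EV-Dox and 1299.5, 2432 and 979 in EV-Veh libraries. TFEB-Dox lay above TFEB-Veh and EV-Dox in every library and overlapped EV-Veh. The log2 difference was 0.93 from TFEB-Veh (limma adjusted p = 0.23) and 0.46 from EV-Veh (limma adjusted p = 0.65), and it rose by 1.69 against EV-Dox (limma adjusted p = 0.012, and 0.081 without TFEB-Dox replicate 2). With expressed-gene scaling the replicates drew together, at 1316, 1466 and 1309.6 in TFEB-Dox, 1199, 1132 and 1278 in TFEB-Veh, 1179, 922 and 1204 in EV-Dox and 1085, 1100.1 and 983 in EV-Veh libraries. There the differences were 0.18, 0.32 and 0.37 (limma adjusted p = 0.23, 0.033 and 0.029). Both the EV-Dox and the EV-Veh call were lost without TFEB-Dox replicate 2 or 3, the EV-Dox call also without EV-Dox replicate 2 and the EV-Veh call also without any EV-Veh replicate.

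REL, the subunit best known from lymphoid and myeloid cells, differed least among the subunits. It had 538, 789 and 648 in TFEB-Dox, against 296, 466 and 445 in TFEB-Veh, 544, 308 and 179 in EV-Dox and 549, 1068 and 467 in EV-Veh libraries. TFEB-Dox overlapped both EV groups. The log2 difference was 0.72 from TFEB-Veh, 1.06 from EV-Dox and 0.00 from EV-Veh (limma adjusted p = 0.31, 0.085 and 1). Expressed-gene scaling reduced the spread within EV-Veh, from a coefficient of variation of 46.9% to one of 2.64%, and turned the difference from EV-Dox to -0.31 (limma adjusted p = 0.035), a call lost when any 1 of 4 libraries was left out (TFEB-Dox replicates 1 and 2, EV-Dox replicates 1 and 3).

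**Figure D2:**
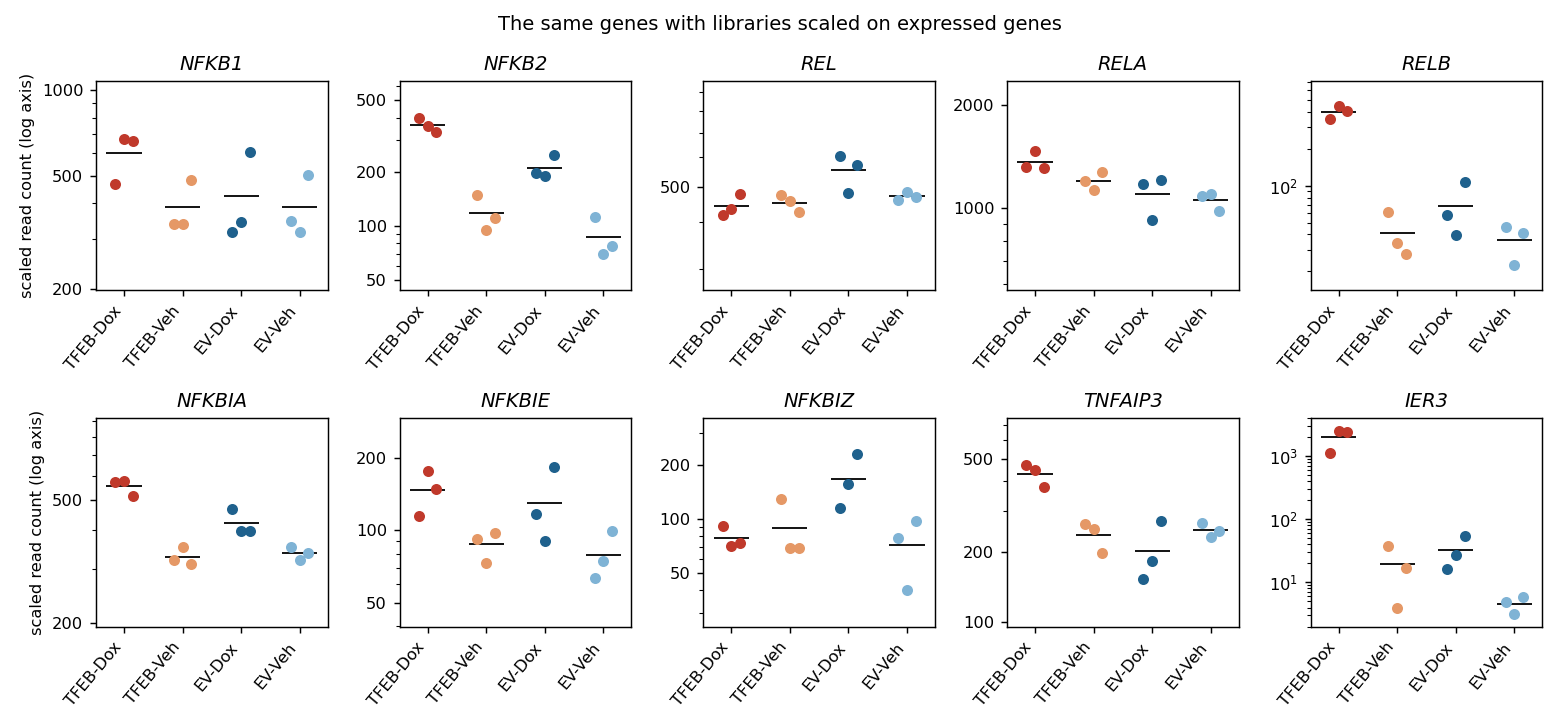
The same 10 genes with libraries scaled on the 7290 expressed nuclear genes (log axis), by group in the same order. Points are libraries and lines are group means. RELA, REL and NFKBIA replicates lie close together, and TFEB-Dox stands above all 9 others for NFKB2, RELA, RELB, NFKBIA, TNFAIP3 and IER3.

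The order of the subunits by mean level per kilobase of exon (deposited scale, exon lengths of GENCODE 29) differed between groups at RELB and between NFKB2 and REL. RELA was highest in each group, at 374 ± 98.9 normalized reads per kilobase in TFEB-Dox, 197 ± 54.7 in TFEB-Veh, 124 ± 64.4 in EV-Dox and 287 ± 139.7 in EV-Veh (SD, n = 3 each). RELB was the lowest of the 5 in each control group, at 11.2 ± 1.58 in TFEB-Veh, 12.1 ± 4.50 in EV-Dox and 15.96 ± 2.39 in EV-Veh. In TFEB-Dox it was at 199 ± 60.9 per kilobase, next below RELA, followed by NFKB1 at 145 ± 49.9, NFKB2 at 119.8 ± 22.9 and REL at 49.97 ± 9.56. In TFEB-Dox, RELB and its neighbour NFKB1, and NFKB1 and its neighbour NFKB2, lay within their SDs of each other. REL lay on average above NFKB2 in both vehicle groups, at 30.5 ± 7.04 against 22.7 ± 2.62 in TFEB-Veh and 52.7 ± 24.8 against 27.2 ± 9.06 in EV-Veh. Both of these pairs lay within their SDs of each other. In EV-Dox, REL at 26.1 ± 14.1 and NFKB2 at 27.9 ± 11.1 did not differ beyond their SDs either.

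Ratios of read counts within 1 library do not depend on how libraries are scaled. RELB reads were 26.6, 30.3 and 31.1% of RELA reads in TFEB-Dox, against 5.12, 2.99 and 2.16% in TFEB-Veh, 4.87, 4.27 and 8.81% in EV-Dox and 4.23, 2.04 and 4.15% in EV-Veh libraries. NFKB2 reads were 30.4, 24.4 and 25.3% of RELA reads in TFEB-Dox, against 12.4, 8.41 and 8.66% in TFEB-Veh, 16.6, 20.6 and 20.5% in EV-Dox and 10.4, 6.36 and 7.81% in EV-Veh. Both non-canonical subunits thus gained on RELA in every TFEB-Dox library relative to each control group, by 3.19 and 1.46 (log2) against TFEB-Veh. Against EV-Dox the gains of RELB and NFKB2 were 2.37 and 0.47. Their ratios to RELA were also higher in EV-Dox than in EV-Veh, by 0.78 and 1.26, without overlap. RELB also gained on NFKB2 in TFEB-Dox, by 1.73 against TFEB-Veh. REL went the other way: its reads were 31.8, 29.6 and 36.5% of RELA reads in TFEB-Dox, against 39.5, 40.3 and 33.4% in TFEB-Veh, 51.2, 52.2 and 47.6% in EV-Dox and 42.3, 43.9 and 47.7% in EV-Veh, overlapping TFEB-Veh only. The REL to RELA ratio also differed between the vehicle groups, by -0.24 (log2) in TFEB-Veh against EV-Veh, without overlap. The NFKB1 to RELA ratio overlapped all 3 controls. For the ratios without overlap the exact two-sided permutation p was 0.1, the smallest that 3 against 3 libraries can give, so no ratio could pass 0.05 before any adjustment over the 11 ratios and 5 pairs of groups compared.

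**Figure D3:**
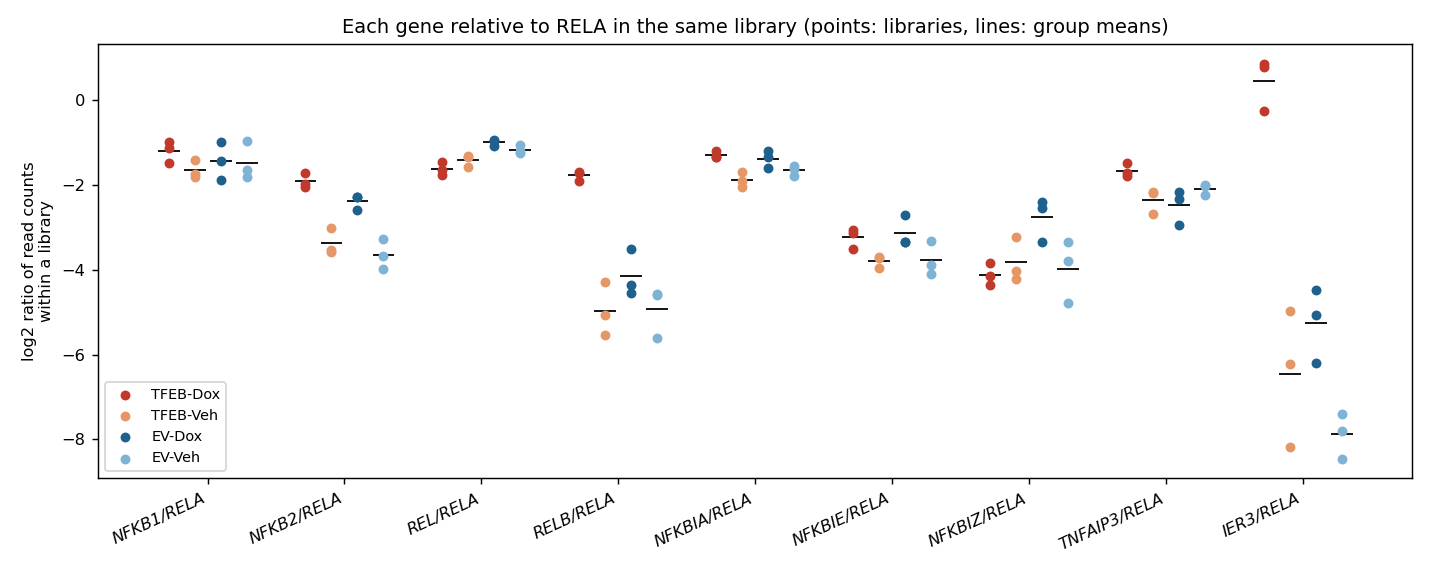
Log2 ratio of the reads of each gene to RELA reads of the same library, by group in the order TFEB-Dox, TFEB-Veh, EV-Dox and EV-Veh. Points are libraries and lines are group means. NFKB2, RELB, TNFAIP3 and IER3 have higher ratios in the 3 TFEB-Dox libraries than in the 9 control libraries.

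NFKBIA encodes IkB-alpha, the inhibitor that NF-kB induces to switch itself off. It had 735, 1049 and 699.6 normalized reads in TFEB-Dox, against 199.99, 359 and 324 in TFEB-Veh, 422, 255 and 125 in EV-Dox and 421, 708 and 335 in EV-Veh libraries. The TFEB-Dox libraries cleared TFEB-Veh and EV-Dox, and 1 EV-Veh library overlapped them. NFKBIA rose by 1.51 ± 0.47 against TFEB-Veh (limma adjusted p = 0.017, and up to 0.11 without TFEB-Dox replicate 2 or TFEB-Veh replicate 1) and by 1.77 against EV-Dox (limma adjusted p = 0.0031). Against EV-Veh the difference was 0.81 (limma adjusted p = 0.26). With expressed-gene scaling its values were 573, 577 and 516 in TFEB-Dox, 320.2, 352 and 311 in TFEB-Veh, 468, 399 and 399 in EV-Dox and 352, 320.3 and 336 in EV-Veh libraries, with TFEB-Dox above all 9 others. On that scale NFKBIA rose by 0.76, 0.40 and 0.72 (limma adjusted p = 0.00014, 0.013 and 0.00021), of which the EV-Dox call was lost without TFEB-Dox replicate 2 (limma adjusted p = 0.054).

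TNFAIP3, a ubiquitin-editing enzyme that shuts down signalling upstream of the IkB kinases, had 600.4, 817 and 514 in TFEB-Dox, against 163, 255 and 206 in TFEB-Veh, 138, 117 and 84.3 in EV-Dox and 318, 514 and 245 in EV-Veh libraries. Only the highest EV-Veh library reached the lowest TFEB-Dox library. It rose by 1.62 ± 0.42 against TFEB-Veh (limma adjusted p = 0.0032) and 5.67-fold against EV-Dox (limma adjusted p = 6.3e-06), and differed by 0.88 from EV-Veh (limma adjusted p = 0.14). With expressed-gene scaling it rose against all 3, by 0.87, 1.13 and 0.79 (limma adjusted p = 0.0019, 0.00018 and 0.0039), also without each library in turn. TNFAIP3 is the gene whose printed promoter window holds the CLEAR element beside 2 kB matches, and their part in its level was not tested.

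NFKBIE encodes IkB-epsilon, which acts alongside IkB-alpha. Its level was 148, 321 and 202 in TFEB-Dox, against 57.5, 74.7 and 101 in TFEB-Veh, 105, 57.9 and 57.4 in EV-Dox and 76.1, 166 and 98.8 in EV-Veh libraries. TFEB-Dox overlapped EV-Veh but not the other groups. It rose by 1.47 ± 0.37 against TFEB-Veh (limma adjusted p = 0.0021) and by 1.58 against EV-Dox (limma adjusted p = 0.00072), and stood 0.97 above EV-Veh (limma adjusted p = 0.053). With expressed-gene scaling the values were 0.73, 0.21 and 0.88 (limma adjusted p = 0.06, 0.51 and 0.025), so the calls against TFEB-Veh and EV-Dox ended and one against EV-Veh appeared. That call was lost without TFEB-Dox replicate 2 or 3 or EV-Veh replicate 1 or 2.

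NFKBIZ, an atypical nuclear IkB that acts as a co-activator as well as an inhibitor, passed no test on the deposited scale. It had 117, 129 and 100.3 in TFEB-Dox, against 80.4, 70.7 and 71.5 in TFEB-Veh, 104, 101 and 71.8 in EV-Dox and 93.7, 88.3 and 96.9 in EV-Veh libraries, from 72 to 123 reads. TFEB-Dox lay above both vehicle groups and overlapped EV-Dox. The log2 differences were 0.63, 0.33 and 0.31 (limma adjusted p = 0.16, 0.43 and 0.59). Its levels were inside the range of the markers of other cell types named above, and unlike those of RELA, REL and NFKBIA its replicates in EV-Veh spread more with expressed-gene scaling, with a coefficient of variation of 40.6% there and 4.67% on the deposited scale. On expressed-gene scaling it fell in TFEB-Dox relative to EV-Dox, with a change of -1.03 (limma adjusted p = 0.02), a call lost without TFEB-Dox replicate 2 or 3 or EV-Dox replicate 3.

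IER3, an immediate early gene that NF-kB induces and whose product affects cell survival, is no inhibitor of the IkB kind. It had 1403, 4554 and 3223 normalized reads in TFEB-Dox, against 23.7, 4.02 and 17.9 in TFEB-Veh, 14.4, 17.6 and 17.0 in EV-Dox and 5.85, 6.94 and 5.81 in EV-Veh libraries. The lowest TFEB-Dox library held 1339 reads and the highest control library 26. IER3 rose by 7.69 ± 0.39 against TFEB-Veh (limma adjusted p = 4.2e-20), 7.31 against EV-Dox (limma adjusted p = 2.2e-19) and 8.58 against EV-Veh (limma adjusted p = 8.8e-22). On expressed-gene scaling without each library in turn, it rose by 6.13 to 7.62, 5.55 to 6.41 and 8.20 to 8.79. These ranges are in the same order of groups, and every call held. Per kilobase it was the highest of the 10 genes in TFEB-Dox, at 2257 ± 1167, and the lowest in EV-Veh, at 4.57 ± 0.473 (SD, n = 3 each). TFEB-Dox replicate 1 was lowest of its group for IER3.

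Set against RELA in the same library, the inhibitors split. NFKBIA reads were 43.5, 39.4 and 39.4% of RELA reads in TFEB-Dox, against 26.7, 31.1 and 24.3% in TFEB-Veh, 39.7, 43.2 and 33.1% in EV-Dox and 32.4, 29.1 and 34.2% in EV-Veh libraries. TFEB-Dox overlapped EV-Dox and lay above both vehicle groups. TNFAIP3 reads were 35.6, 30.6 and 28.9% of RELA reads in TFEB-Dox, against 21.8, 22.1 and 15.4% in TFEB-Veh, 12.9, 19.8 and 22.4% in EV-Dox and 24.5, 21.1 and 25.02% in EV-Veh, above all 9 controls. IER3 reads were 83.1, 171 and 181% of RELA reads in TFEB-Dox, against 3.17, 0.348 and 1.34% in TFEB-Veh, 1.36, 2.99 and 4.52% in EV-Dox and 0.450, 0.285 and 0.593% in EV-Veh. IER3 transcripts thus gave more reads than RELA in 2 of the 3 TFEB-Dox libraries and under 5% of RELA reads in every control library. The NFKBIE ratio overlapped both EV groups, and the NFKBIZ ratio was lower than in EV-Dox by 1.36 (log2) without overlap. These ratios too had an exact permutation p of 0.1 or more.

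Against each of the 3 control groups at once, the call was met by 3 of the 10 genes on the deposited scale (NFKB2, RELB and IER3), where 10.7% of tested genes met it, and by 5 with expressed-gene scaling (these and NFKBIA and TNFAIP3), where 11.6% did. All 3 TFEB-Dox libraries lay above all 9 controls for 3 genes on the deposited scale (13.6% of tested genes did) and for 6 with expressed-gene scaling (12.5%), the sixth being RELA. Against EV-Dox, 8 of the 10 were higher and 0 lower by limma (27.2% of tested genes were higher and 5.37% lower; 0 members were lower at an unadjusted p below 0.05, by edgeR or by DESeq2), with a median of 1.85 beside 0.07 for all genes. With expressed-gene scaling 6 were higher and 2, REL and NFKBIZ, lower (14.2% and 57.6%), with a median of 0.47 beside -1.25. Against EV-Veh, 3 were higher and 0 lower (12.2% and 8.51%; 0 lower at an unadjusted p below 0.05, by edgeR or by DESeq2), with a median of 0.85 beside 0.01, and without EV-Veh replicate 2 the count was 5. There 7 were higher with expressed-gene scaling (15.9% of tested genes; 16.2% and 0 members were lower, by limma also at an unadjusted p below 0.05), and 7 by edgeR (18.7%) and by DESeq2 (15.5%).

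**Figure D4:**
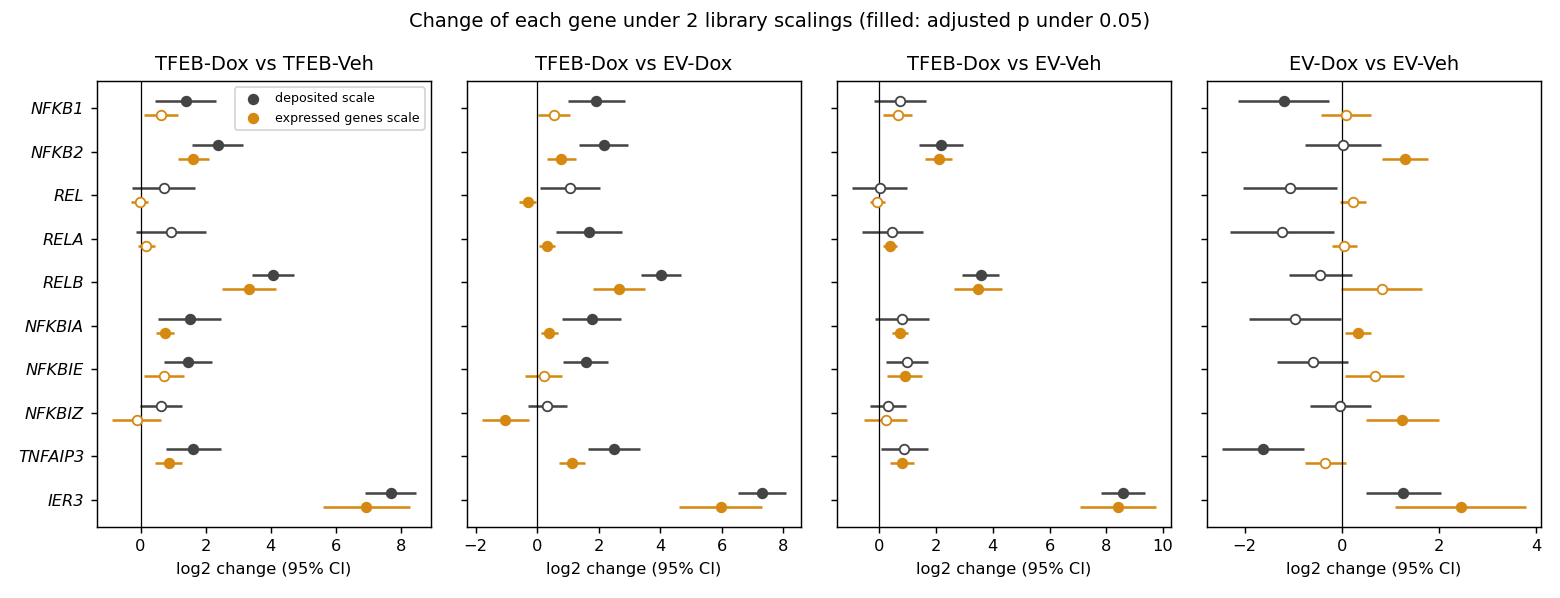
Log2 change of the 10 genes in 4 comparisons on the deposited scale (dark) and with expressed-gene scaling (orange). Bars are 95% intervals from the limma fit, and filled points passed an adjusted p of 0.05. IER3 and RELB lie far to the right in all 3 comparisons with TFEB-Dox on both scales.

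Doxycycline in the empty-vector line was read from EV-Dox against EV-Veh. IER3 was higher and NFKB1 and TNFAIP3 were lower by limma, which is 1 gene higher and 2 lower of 10 where 3.39% of tested genes were higher and 23.3% lower. The median was -0.78 beside -0.19 for all genes. TNFAIP3 was at 138, 117 and 84.3 in EV-Dox, against 318, 514 and 245 in EV-Veh libraries, and fell by 1.62 on the log2 scale (limma adjusted p = 0.0079), without overlap. NFKB1 fell by 1.20 (limma adjusted p = 0.049), a call lost when any 1 of 10 libraries was left out, the exceptions being TFEB-Veh replicate 1 and EV-Dox replicate 1. IER3 rose by 1.27 (limma adjusted p = 0.018), from 17 to 21 reads in EV-Dox and 5 to 7 in EV-Veh libraries. Both the TNFAIP3 and the IER3 call were lost without EV-Veh replicate 2 (limma adjusted p = 0.074 for each). Expressed genes as a whole stood 1.29 lower in EV-Dox on this scale. With expressed-gene scaling TNFAIP3 differed by -0.34 and NFKB1 by 0.09, and neither passed. There NFKB2, NFKBIA, NFKBIZ and IER3 were higher and 0 genes lower by limma (44.1% and 5.75% of tested genes), with 0 also lower at an unadjusted p below 0.05, while edgeR and DESeq2, on their own scaling, called 1 (14.6% of tested genes) and 3 (22.9%) lower. NFKBIZ there was at 116, 157 and 229 in EV-Dox, against 78.2, 39.9 and 97.2 in EV-Veh libraries, a rise of 1.25 (limma adjusted p = 0.018). The NFKBIZ and IER3 calls were lost without EV-Dox replicate 3 or EV-Veh replicate 2. The NFKBIA call, at 0.32, was lost when any 1 of 10 libraries was left out (all but TFEB-Dox replicate 1 and TFEB-Veh replicate 1), and the NFKB2 call held without each library in turn.

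The uninduced TFEB line, TFEB-Veh against EV-Veh, gave 0 calls among the 10 genes in either direction and 0% of all tested genes by limma. At an unadjusted p below 0.05 limma had IER3 alone higher and 0 lower, and edgeR and DESeq2 gave 0 calls. TFEB-Veh IER3 values of 23.7, 4.02 and 17.9 overlapped those of EV-Veh.

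Whether the response to doxycycline differed between the lines was tested as the interaction, the log2 change of TFEB-Dox over TFEB-Veh minus that of EV-Dox over EV-Veh. By limma 9 of 10 genes were higher and 0 lower (29.2% and 6.15% of tested genes; 0 lower at an unadjusted p below 0.05 and by edgeR and DESeq2), NFKBIZ being the gene not called. The median was 2.41 beside 0.31 for all tested genes. On this scale expressed genes stood 0.75 higher in TFEB-Dox than in TFEB-Veh and 1.29 lower in EV-Dox than in EV-Veh. Both shifts enter the interaction, and with expressed-gene scaling the medians were 0.38 and -1.67. The REL call was lost when any 1 of 9 libraries was left out (all but TFEB-Dox replicate 1, EV-Dox replicate 1 and EV-Veh replicate 3), and with expressed-gene scaling REL was at -0.26. The RELA call was lost without TFEB-Dox replicate 2, TFEB-Veh replicate 1, EV-Dox replicate 2 or EV-Veh replicate 2. IER3 had 6.42 ± 0.55 (limma adjusted p = 2.5e-12), RELB 4.52 ± 0.46 (limma adjusted p = 2.2e-10) and TNFAIP3 3.24 ± 0.59 (limma adjusted p = 4.4e-05). With expressed-gene scaling 4 were higher and 1 lower (11% and 57.8%). NFKB2 was not called there, and ranged over 0.13 to 0.51 without each library in turn (limma adjusted p up to 0.73). IER3 at 4.50, RELB at 2.51 and TNFAIP3 at 1.21 kept their call without each library in turn. NFKBIA at 0.44 (limma adjusted p = 0.041) lost it without 9 of the 12, all but TFEB-Dox replicate 3, TFEB-Veh replicate 2 and EV-Dox replicate 1. NFKBIZ was lower, at -1.36 (limma adjusted p = 0.027), a call lost without TFEB-Dox replicate 2 or 3, TFEB-Veh replicate 1, EV-Dox replicate 3 or EV-Veh replicate 2.

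Other parts of the pathway were counted in TFEB-Dox against TFEB-Veh, beside the 17.4% of tested genes higher and 4.66% lower. Of 16 further inhibitors and brakes, 10 rose and 0 fell by limma, 9 of them under each scaling (0 fell also under each scaling, and 1 was lower with expressed-gene scaling alone). RNF11, a partner of TNFAIP3 in its ubiquitin-editing complex, averaged 1632 ± 445 normalized reads in TFEB-Dox and 164 ± 41.0 in TFEB-Veh libraries (SD, n = 3 each), a log2 change of 3.30 (limma adjusted p = 1.5e-07). TAX1BP1, another partner, rose by 2.71, ZC3H12A, an RNase that degrades inflammatory transcripts, by 2.12, and TRAF3, which restrains the non-canonical kinase, by 1.94. NFKBIB, the remaining classical IkB gene, rose by 1.71, a gene named after its value was seen.

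Of 28 IkB kinase, upstream kinase and adaptor genes, 11 rose and 2 fell, 8 and 1 of them under each scaling, and with expressed-gene scaling 10 were higher and 8 lower. RIPK2, the kinase below the NOD receptors, averaged 696 ± 90.5 in TFEB-Dox and 116 ± 12.3 in TFEB-Veh libraries, a change of 2.57 (limma adjusted p = 1.2e-06). BCL10, a scaffold of the CARD-MALT1 complex, rose by 2.28, BTRC, the F-box protein that marks IkB for destruction, by 2.24, and IRAK1, a kinase below Toll-like and interleukin receptors, by 2.22. The falls were of IKBKE and CARD9, named after their values were seen.

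Of 20 tested receptors 5 rose and 0 fell, 4 and 0 under each scaling; with expressed-gene scaling 3 were lower. LY96, the co-receptor of TLR4, averaged 128 ± 76.8 in TFEB-Dox and 8.66 ± 3.63 in TFEB-Veh libraries (a change of 3.55), and TNFRSF12A, the TWEAK receptor, rose by 2.98. TNFRSF1B, a TNF receptor, rose by 1.84 (limma adjusted p = 0.014, and up to 0.11 without TFEB-Dox replicate 2 or TFEB-Veh replicate 1), and IL1R1, the interleukin-1 receptor, by 1.78, though not under each scaling. Of 8 tested ligands 3 rose and 3 fell, 2 and 2 under each scaling. With expressed-gene scaling 2 ligands were higher and 4 lower. TNFSF14, a ligand of the lymphotoxin beta receptor that signals through the non-canonical route, averaged 6159.6 ± 3108 in TFEB-Dox and 69.0 ± 18.8 in TFEB-Veh libraries, a change of 6.33 (limma adjusted p = 3e-16). IL1A, the cytokine interleukin-1 alpha, rose by 4.13. TNFSF13B, the B-cell survival ligand BAFF and another activator of that route, changed by -1.79 (limma adjusted p = 0.0031). LTA, lymphotoxin alpha, changed by -1.46, a call lost without TFEB-Dox replicate 1 or 3 or TFEB-Veh replicate 1 or 3. Its low values overlapped, at 1.05, 22.6 and 6.12 in TFEB-Dox and 24.7, 13.7 and 17.9 in TFEB-Veh libraries. With expressed-gene scaling LTA was not called (limma adjusted p = 0.054).

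Of 25 tested target genes 12 rose and 1, IRF1 (named after its value was seen), fell, and 12 rose and 0 fell under each scaling, while with expressed-gene scaling alone 12 were higher and 3 lower. IL8, a neutrophil chemokine, averaged 17627 ± 11502 in TFEB-Dox and 79.2 ± 51.4 in TFEB-Veh libraries, a change of 7.61 (limma adjusted p = 1.4e-16). CCL3, a macrophage chemokine, rose by 7.57, BCL2A1, a survival factor, by 6.56, and ICAM1, an adhesion molecule, by 4.71. TFEB-Dox replicate 1, lowest of its group for IER3, was also lowest for IL8, CCL3 and TNFSF14. The median log2 changes of the lists were 1.62 for the further inhibitors, 0.92 for kinases and adaptors, 0.28 for receptors, -0.56 for ligands and 1.01 for targets, beside -0.0017 for all genes and 0.75 for the expressed genes used in scaling. Against EV-Dox the lists gave 11 higher and 0 lower, 13 and 2, 6 and 1, 2 and 3, and 13 and 0, in the same order of lists (27.2% of tested genes were higher and 5.37% lower). With expressed-gene scaling these counts were 9 and 4, 9 and 13, 4 and 13, 2 and 6, and 11 and 8 (14.2% and 57.6%), so more kinases, receptors and ligands were lower than higher. Against EV-Veh the lists gave 4 and 1, 5 and 3, 3 and 2, 2 and 2, and 12 and 1 (12.2% and 8.51%). With expressed-gene scaling they gave 10 and 1, 10 and 6, 5 and 3, 2 and 2, and 12 and 2 (15.9% and 16.2%).

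**Figure D5:**
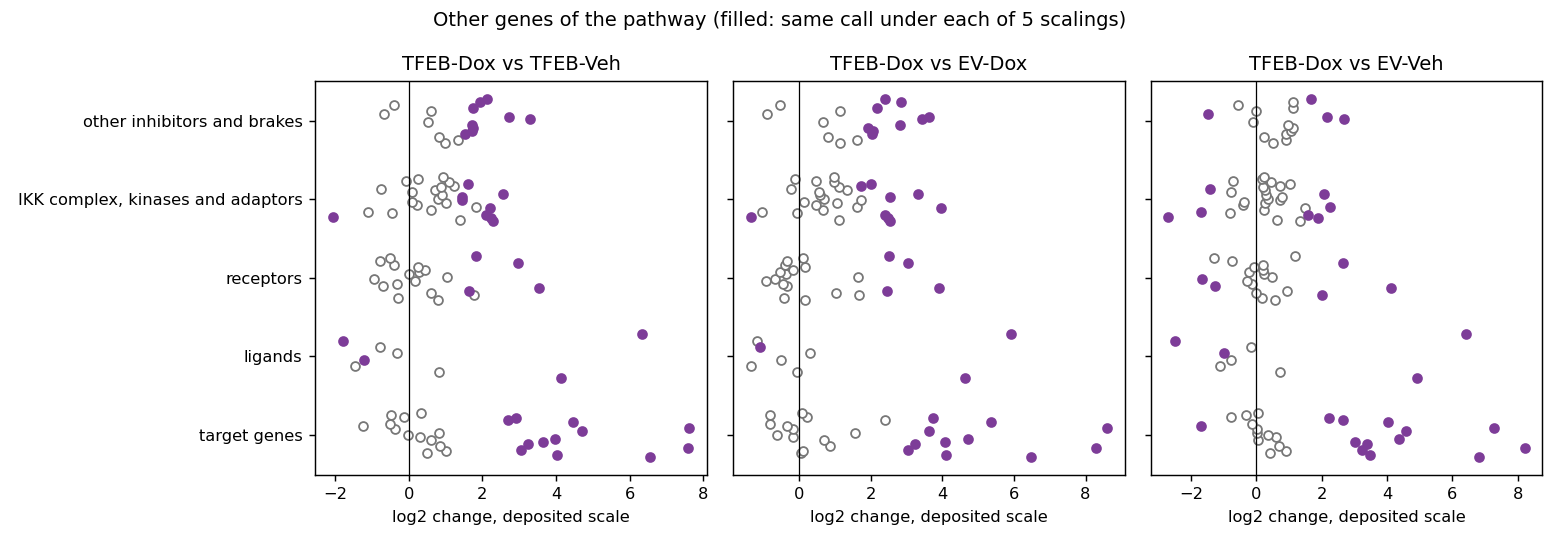
Log2 change on the deposited scale of each tested gene of 5 pathway lists in the 3 comparisons with TFEB-Dox. Points are genes, and filled points had the same limma call under each of 5 scalings. In TFEB-Dox against TFEB-Veh, 12 target genes and 9 further inhibitors are filled to the right of 0, and the ligands have 2 filled on either side.

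Genes whose profile over the 12 libraries was most like that of NFKB1 on the deposited scale were EIF2S2, RABEP1, PSMC6, SLTM and PSMD6, with Pearson r of 0.992 to 0.993 among 12051 ranked genes. For NFKBIA they were KIF5B, GSK3B, RAC1, FNDC3A and THAP1, with r of 0.994 to 0.995. The 12 points share each library's level of expressed genes. With expressed-gene scaling the leading genes were ANAPC13 for NFKB1 (r = 0.971) and CTSB for NFKBIA (r = 0.980), of which CTSB encodes a lysosomal protease.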

How the data were processed

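Total RNA of HL60 cells was isolated with NucleoSpin RNA II columns, and libraries were prepared with a NuGEN Ovation kit meant for fixed human samples, per the labels' protocols. The submitters' processing notes name STAR 2.5.3a and HTSeq 0.6.1. None of the genome build, annotation release and strand setting is given in the sources used here. The deposited table holds a normalized signal, gene read counts divided by 1 factor per library as the values themselves show. Dividing each column by the worth of 1 read gave whole reads for 100% of values (tolerance 0.01). The worth of 1 read was 0.803 to 1.22, and within 1% of 1 in EV-Veh replicate 2 and TFEB-Veh replicate 3. Mitochondrial genes held 13.3 to 33.1% of reads, and no 2 replicates agreed within sampling noise.

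Genes with a mean of at least 10 (23128 of 57820) were tested with limma 3.58.1 (R 4.3.3) on log2(value + 1), 1 fit over the 4 groups with a variance trend, and Benjamini-Hochberg adjustment over all tested genes at 0.05. The p-values measure the spread between these samples. edgeR 4.0.16 (quasi-likelihood) and DESeq2 1.42.0 were run on the recovered reads as alternatives. In TFEB-Dox against TFEB-Veh edgeR called 4489 genes higher and 2196 lower, and limma 4032 and 1077. Further alternatives were TMM, equal totals, equal upper quartiles, expressed-gene scaling, pseudocounts of 0.5 and 10, other filters, no variance trend, the compared groups alone, the replicate block, and each library left out in turn. The fits were tested on simulated data.

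The 10 genes and the pathway lists were chosen with earlier results of these data known. All 10 genes are named whatever their result, with TFEB as the check. Each other list names up to 4 called genes with the largest absolute change in TFEB-Dox against TFEB-Veh (with under 2 called, the 2 most abundant genes instead), and likeness names 5 genes each for NFKB1 and NFKBIA among genes whose mean was 50 or more. OTULIN was listed as FAM105B. Exon lengths came from GENCODE 29, which may not be the release on which the reads were counted. The values per kilobase share this limit.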

Additional observations from a re-analysis of the deposited data

Results flagged for a closer look

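For 9 of the 10 genes the response to doxycycline differed between the TFEB S211A line and the empty-vector line by the interaction test on the deposited scale. The log2 difference between the responses was 2.58 for NFKB1, 2.36 for NFKB2, 1.78 for REL, 2.17 for RELA and 4.52 for RELB. It was 2.47 for NFKBIA, 2.08 for NFKBIE, 3.24 for TNFAIP3 and 6.42 for IER3. All tested genes had a median of 0.31, and 29.2% of them were called higher. On this scale the expressed genes used in scaling stood 0.75 higher in TFEB-Dox than in TFEB-Veh and 1.29 lower in EV-Dox than in EV-Veh. Both shifts enter these differences. With expressed-gene scaling the median of the 10 genes was 0.38 beside -1.67 for all tested genes. The REL call was lost when any 1 of 9 libraries was left out and the RELA call when any 1 of 4 was. With expressed-gene scaling RELB, NFKBIA, TNFAIP3 and IER3 were called higher and NFKBIZ lower. NFKB1, NFKB2, RELA and NFKBIE were not called there, and REL was at -0.26.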

How the results depend on the processing

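Of the values of single genes under the alternatives, 1781 kept direction and side of the threshold, 75 lost a call, 37 gained one and 43 changed sign, and of the counts of the 10 genes 339 stayed within 1.5 times and 103 did not. The rises of RELB, NFKB2 and IER3 against each control group held under every scaling and without each library. Depth limited IER3 in controls (5 to 26 reads).

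Counts against EV-Dox were 5 higher and 2 lower with equal totals and 2 lower with expressed-gene scaling. Against EV-Veh, 5 were higher by TMM and equal totals and 7 with expressed-gene scaling, edgeR and DESeq2. In EV-Dox against EV-Veh, 0 were higher with a pseudocount of 10, no filter, no variance trend or the compared groups alone, 2 by edgeR, 3 with equal totals and 4 with expressed-gene scaling, and 1 was lower with no filter, TMM, equal totals, the compared groups alone and edgeR, but 0 with expressed-gene scaling. The interaction gave 4 higher and 1 lower with equal totals and with expressed-gene scaling.

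Leaving out each library gave, on the deposited scale, 5 to 7 higher against TFEB-Veh, 7 to 9 against EV-Dox, 3 to 5 against EV-Veh, 0 to 1 higher and 0 to 5 lower in EV-Dox against EV-Veh (0 and 0 without EV-Veh replicate 2, 5 lower without EV-Dox replicate 1) and 7 to 9 higher in the interaction. Leaving out libraries on expressed-gene scaling, a combination chosen after seeing the data, gave 5 to 7 against TFEB-Veh, 4 to 7 higher and 0 to 2 lower against EV-Dox, 5 to 8 against EV-Veh, 1 to 4 higher and 0 to 1 lower in EV-Dox against EV-Veh, and 3 to 4 higher and 0 to 1 lower in the interaction.

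Sign changes (log2) were these, and the cause was not tested. With equal totals, REL was at -0.14 against TFEB-Veh, -0.37 against EV-Dox, -0.30 against EV-Veh and -0.21 in the interaction, and NFKBIZ at -0.22 against TFEB-Veh, -1.09 against EV-Dox and -1.32 in the interaction. In EV-Dox against EV-Veh that setting gave REL 0.069, RELB 0.66, NFKBIA 0.17, NFKBIE 0.52 and NFKBIZ 1.09. With expressed-gene scaling, REL was at -0.030 against TFEB-Veh, -0.31 against EV-Dox, -0.086 against EV-Veh and -0.26 in the interaction, and NFKBIZ at -0.12 against TFEB-Veh, -1.03 against EV-Dox and -1.36 in the interaction. In EV-Dox against EV-Veh it gave NFKB1 0.089, REL 0.23, RELA 0.053, RELB 0.82, NFKBIA 0.32, NFKBIE 0.67 and NFKBIZ 1.25. Equal upper quartiles gave REL -0.12 against EV-Veh and NFKB2 -0.17 in EV-Dox against EV-Veh. By edgeR, NFKBIZ was at -0.086 against EV-Dox and -0.17 in the interaction, and in EV-Dox against EV-Veh RELB was at 0.19, NFKBIE at 0.0087 and NFKBIZ at 0.54. For NFKBIZ in that comparison TMM gave 0.15 and DESeq2 0.29. Without each library in turn, NFKB2 ranged over -0.28 to 0.32 and NFKBIZ over -0.13 to 0.14 in EV-Dox against EV-Veh, and REL over -0.24 to 0.36 against EV-Veh.

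With the replicate number as a block, 7 genes were higher against TFEB-Veh, 8 against EV-Dox, 4 against EV-Veh, 1 higher and 3 lower in EV-Dox against EV-Veh, and 9 higher in the interaction. Same-numbered libraries of different groups correlated at -0.22 to 0.72, with 14 of 18 pairs over 0.1, and 10 of 12 libraries correlated best with their own number. The numbers were not taken to pair the samples.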
